A study of Homo sapiens with 6 samples.

Results

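SH-SY5Y cells depleted of CSB were compared directly with SH-SY5Y cells depleted of CSA. SH-SY5Y is a human neuroblastoma line with features of noradrenergic neuroblasts. The genes described had a mean level of at least 10 scaled counts in the CSA knockdown or in the CSB knockdown, which took in 18151 of the 32575 genes listed in any library. A scaled count is the number of reads of a gene divided by 1 size factor per library, and a gene with no entry in a library was taken as 0. Of the 18151 genes, 16716 reached the level of 10 in both knockdowns, 905 only in the CSB knockdown and 530 only in the CSA knockdown, and 13816 were annotated as protein-coding.

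Cells of all 3 groups received a lentivirus with a short hairpin RNA and puromycin selection, and were then cultured for 2 to 3 weeks. The hairpin targeted CSA in the libraries labelled CSAmut, CSB in those labelled CSBmut, and was a control in those labelled WT. Because the growth protocol describes hairpins, the depleted cells are called knockdowns here rather than mutants. Each group had 2 libraries of mRNA made from 1 µg of total RNA. The labels do not say whether replicate libraries were grown as separate cultures, so the p-values measure the spread between libraries, which may be technical. The sources used here do not give the number of hairpins per target. Control libraries are given to show levels, and they share in the estimate of the spread.

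CSA, the product of ERCC8, and CSB, the product of ERCC6, act in transcription-coupled nucleotide excision repair. CSB is a DNA-dependent ATPase of the SWI2/SNF2 family that is recruited to RNA polymerase II stalled at DNA damage. CSA is the substrate receptor of a cullin ubiquitin ligase that acts with CSB at the stalled polymerase. Loss of either protein causes Cockayne syndrome, a disorder of growth and of the nervous system, and CSB is also known as a chromatin remodeller and a regulator of transcription.

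The target of each hairpin was read first. ERCC8 stood at 61.8 and 57.2 scaled counts in the CSA knockdown, 186 and 215 in the CSB knockdown, and 219 and 217 in the control. Both CSA libraries were below every other library, and the log2 difference, taken throughout as CSB minus CSA knockdown, was 1.73 ± 0.13 (SE; limma adjusted p = 5.2e-07). ERCC6 stood at 258 and 302 in the libraries of the CSB knockdown. It was at 618 and 611 under CSA knockdown, against control levels of 615 and 593. Both CSB libraries were the low ones, with a log2 difference of -1.14 ± 0.08 (SE; limma adjusted p = 6.3e-07). The targets therefore followed the labels, and each knockdown left part of its target's RNA.

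The 6 libraries held between 19368272 and 26758162 reads assigned to genes, of which 5.73% to 6.51% were mitochondrially encoded. Markers of the noradrenergic neuroblast line were present in all libraries. The transcription factor HAND2 ranged from 25082 to 30682 scaled counts, whereas TH, which encodes tyrosine hydroxylase, was low at 2.86 to 20.3. The endothelial marker PECAM1, the Schwann cell factor SOX10 and the epithelial keratins KRT5 and KRT14 were at 0 in all 6 libraries, and the leukocyte marker PTPRC was at 0 in the 4 knockdown libraries. Other markers of these cell types were present at low levels in all 6 libraries. The epithelial EPCAM ranged from 21.2 to 48.8, the glial S100B from 13.2 to 32.8, the endothelial VWF from 4.13 to 16.2 and the blood cell marker CD14 from 16.2 to 20.3. Haemoglobin subunit HBB was at 373 scaled counts in control replicate 2 and at 0 in the other 5 libraries.

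Differences between the knockdowns were widespread. Of the 18151 genes, 7965 (43.9%) differed at a limma adjusted p below 0.05, compared with 29.4% of all 28388 genes tested. Among them, 4892 (27.0% of the genes described) were higher in the CSB knockdown and 3073 (16.9%) were higher in the CSA knockdown. Of the 7965 genes, 3473 differed by at least 1.5-fold, 1750 by at least 2-fold (1215 higher in CSB and 535 higher in CSA), 391 by at least 4-fold and 110 by at least 8-fold. At 8-fold or more the balance was 49 higher in the CSB knockdown against 61 higher in the CSA knockdown.

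The balance of directions over all genes depended on the scaling of the libraries. With the deposited scaling, 61.4% of the differing genes were higher in the CSB knockdown and the median log2 difference over the genes described was 0.08. After TMM scaling the split was 3850 higher in CSB and 4072 higher in CSA (48.6%), with a median of -0.0063. DESeq2 on the recovered reads gave 3132 and 3360 (48.2%), and edgeR with upper quartile factors gave 4644 and 4135 (52.9%). Median differences of gene groups below are therefore to be read against 0.08. Counts also fell when a library was left out: 3681 genes differed without CSB replicate 1 and 3669 without CSB replicate 2, and without CSA replicate 1 the genes higher in the CSA knockdown numbered 2000.

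**Figure D1:**
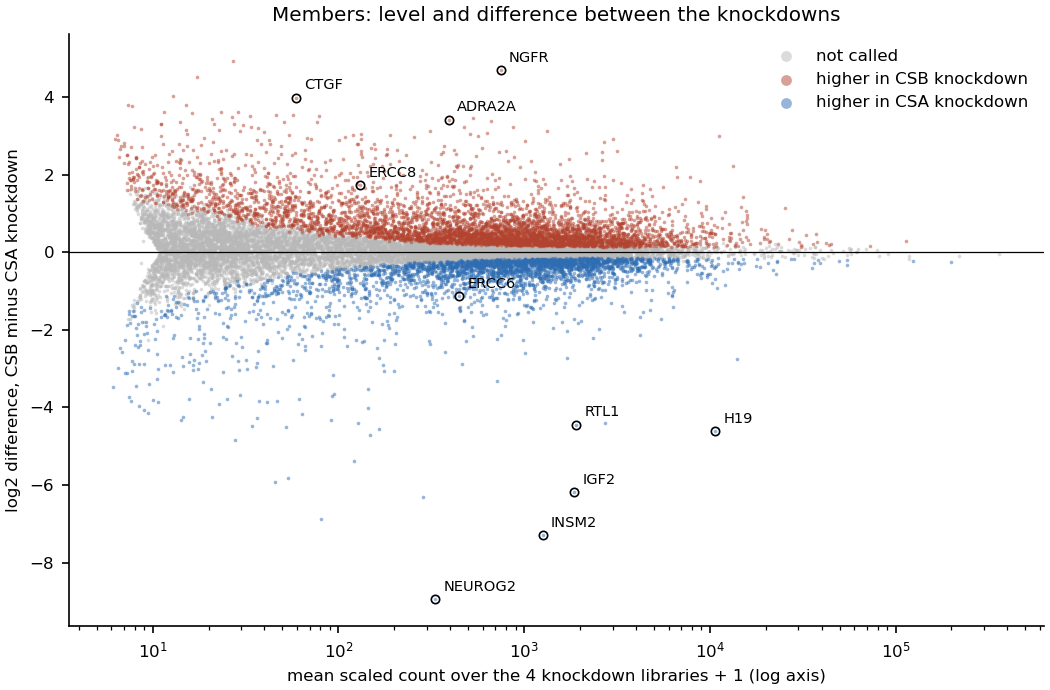
Log2 difference between the CSB and CSA knockdowns (vertical axis) against the mean scaled count over the 4 knockdown libraries plus 1 (horizontal, log axis), 1 point for each of the 18151 genes, red where higher in the CSB knockdown and blue where higher in the CSA knockdown. The genes with the largest differences lie on the lower side, with NEUROG2 at -8.94 and INSM2 at -7.29, while the largest labelled difference on the upper side is NGFR at 4.70.

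At the edge of the choice, LINC00643 and CXorf67 had a highest knockdown mean of 10.04 scaled counts, just inside, and RP5-827C21.6 and LINC01132 had 9.99, just outside. Genes that reached the level of 10 in only 1 knockdown differed less often by count, 466 of 1435 (32.5%), against 7499 of 16716 (44.9%) for those that reached it in both. The share of genes that differed rose with the level, from 16.9% in the lowest quintile (mean over 6 libraries below 29.6) to 60.8% in the highest quintile (above 1451). Among protein-coding genes it was 48.2% in the quintile with the shortest genomic span (below 10.5 kb) and 57.8% in the quintile with the longest (above 103 kb). Median differences by chromosome lay between 0.03 on chromosome 3 and 0.16 on chromosome 19 for the nuclear chromosomes. On chromosome 19, 30.1% of genes were higher in the CSB and 8.66% in the CSA knockdown. On chromosome 21 the shares were 14.8% and 17.6%, against 27.0% and 16.9% over all genes described.

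**Figure D2:**
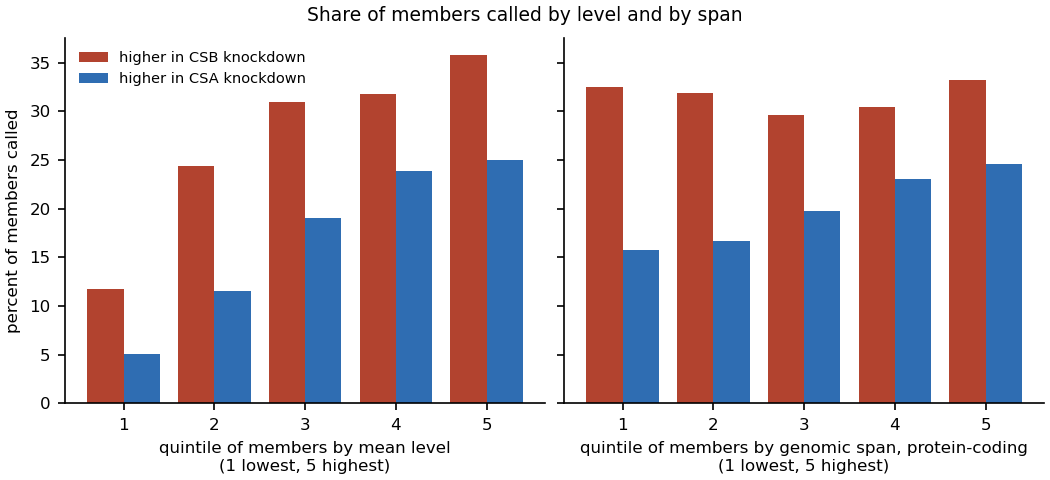
Percent of genes that differed between the knockdowns (bars from 0; red, higher in the CSB knockdown; blue, higher in the CSA knockdown) by quintile of the mean level and by quintile of the genomic span of protein-coding genes. The share rises with the level, from 16.9% to 60.8% for both directions together, and moves less with the span, from 48.2% to 57.8%.

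The largest log2 differences, those of NEUROG2 and INSM2, were toward lower levels in the CSB than in the CSA knockdown. NEUROG2, a proneural transcription factor that starts neuronal differentiation, stood at 643 and 684 scaled counts in the CSA libraries, 0 and 0.825 in the CSB libraries and 17.9 and 28.0 in the control. The log2 difference was -8.94 ± 0.35 (SE; limma adjusted p = 2.8e-09). It rested on 1310 reads in the CSA libraries against 1 in the CSB libraries, a ratio of 1409 with a 95% counting interval of 252 to 55700.2. NEUROG2 reached the level of 10 only in the CSA knockdown. Its direction is thus tied to the choice of genes, and its p-value is no separate support for it. INSM2, a zinc finger protein of the neuroendocrine insulinoma-associated family, stood at 2506 and 2502 in the CSA libraries, 14.3 and 15.7 in the CSB libraries and 399.8 and 406 in the control, a log2 difference of -7.29 ± 0.09 (SE; limma adjusted p = 5.2e-13). For both genes the control libraries lay between the knockdowns.

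IGF2, an imprinted growth factor that signals through the IGF1 receptor, stood at 3586 and 3770 in the CSA libraries, 50.6 and 47.9 in the CSB libraries and 718 and 613 in the control. Its log2 difference was -6.19 ± 0.09 (SE; limma adjusted p = 5.6e-13). H19, the imprinted noncoding RNA next to IGF2, stood at 18721 and 22476 in the CSA libraries against 848 and 835 in the CSB libraries, with 6097 and 5752 in the control (log2 difference -4.61 ± 0.07). RTL1, an imprinted gene derived from a retrotransposon, stood at 3721 and 3541 against 146 and 187 (-4.45 ± 0.10), with 966 and 1028 in the control. All 3 imprinted genes were thus high in the CSA libraries, intermediate in the control and low in the CSB libraries.

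The other genes among the 15 with the largest differences in this direction had varied roles. RAB27B, a small GTPase of regulated exocytosis, had 250.4 and 237 scaled counts in the CSA libraries and 12.1 and 9.08 in the CSB libraries (log2 difference -4.41 ± 0.21; limma adjusted p = 1.8e-08). RYR2, a calcium release channel of the endoplasmic reticulum, had 189 and 155 against 8.81 and 6.60 (-4.32 ± 0.27). PAPPA2, a protease that cleaves IGF-binding proteins, had 130.1 and 109.7 against 7.71 and 4.13 (-4.17 ± 0.39). CNTNAP5, a neurexin-like adhesion protein, FGL1, a secreted fibrinogen-like protein, and ARHGAP36, a regulator of protein kinase A and Hedgehog signalling, lay between -5.39 and -4.40. CCDC68 was called on 311 reads in the CSA libraries against 1 in the CSB libraries, a ratio of 335 (95% counting interval 59.6 to 13255), and the noncoding RP11-561B11.6 on 205 against 3, a ratio of 73.5 (24.8 to 359). KIAA0125 was at -6.30, and CP, the copper carrier ceruloplasmin, at -4.55. CP overlaps HPS3, so reads of the pair may not be separated.

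NGFR and CTGF had the largest log2 differences among the genes that were higher in the CSB knockdown with a mean of at least 100 there. NGFR, the low-affinity neurotrophin receptor p75 and a marker of neural crest cells, stood at 47.7 and 62.0 scaled counts in the CSA libraries, 1358 and 1515 in the CSB libraries and 116 and 102 in the control. Its log2 difference was 4.70 ± 0.13 (SE; limma adjusted p = 2.2e-10). CTGF, a matricellular protein and a textbook YAP target, stood at 7.59 and 4.77 against 113 and 107 (3.98 ± 0.30), with 20.9 and 27.0 in the control. ADRA2A, the alpha-2A adrenergic receptor, stood at 69.4 and 62.9 against 719 and 714 (3.42 ± 0.10), with 292 and 273 in the control. The CSB libraries of these receptors and of CTGF were above all other libraries.

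GDF15, a stress-induced member of the TGF-beta family, stood at 120.3 and 145 in the CSA libraries against 1155 and 1093 in the CSB libraries (log2 difference 3.08 ± 0.09). EDNRA, the endothelin receptor A of neural crest and mesenchyme, stood at 283 and 260 against 2367 and 2397 (3.13 ± 0.06), and the noncoding RP11-752L20.3, which overlaps EDNRA, was at 3.36. PRRX2 and MSX2, homeobox factors of mesenchyme and neural crest, were at 3.12 and 3.05. CACNA1G, a T-type calcium channel, NECAB2, a neuronal calcium-binding protein, PPP1R1B, the phosphatase inhibitor DARPP-32, RAB7B, a GTPase of endosomes, and INPP5D, an inositol phosphatase, lay between 3.05 and 3.54. CRTAC1, a secreted cartilage protein that overlaps GOLGA7B, was at 3.38. For all 30 genes with the largest differences (15 in each direction, mean of at least 100 in the higher knockdown), both control libraries lay between the 2 knockdowns. A wide gap between the knockdowns makes such a position more likely, so it is partly set by the choice of these genes. The same held for 310 (79.3%) of the 391 genes that differed by at least 4-fold. It held for 3625 (45.5%) of the 7965 differing genes, while both controls lay above all 4 knockdown libraries for 803 and below them for 795. The position was not counted for genes that did not differ.

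**Figure D3:**
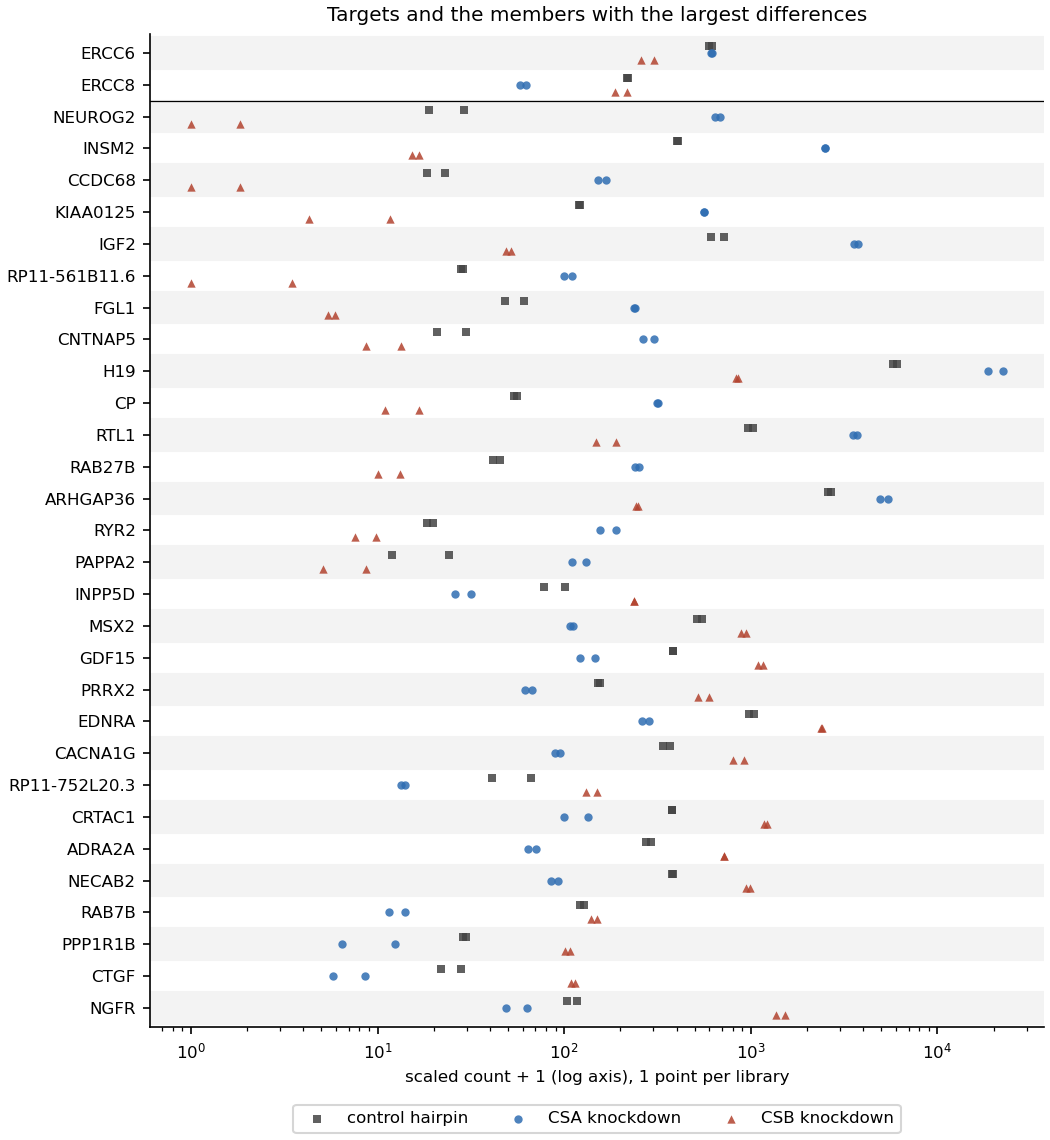
Scaled count plus 1 (log axis) in each library for the 2 hairpin targets (top) and for genes with the largest difference in each direction, with 1 point per library (squares, control; circles, CSA knockdown; triangles, CSB knockdown). In each row below the line the control libraries sit between the circles and the triangles, whereas for ERCC6 and ERCC8 1 knockdown stays near the control.

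Gene groups were described by counts and medians only, against 27.0% higher in the CSB knockdown, 16.9% higher in the CSA knockdown and a median of 0.08 over all genes described. Counts give genes that reached the level of 10, and those that did not are left out of them. Genes that reached it in only 1 knockdown entered through the group where they were higher, which ties their direction to the choice. They numbered 6 of 34 interferon and antigen presentation genes, 5 of 42 synaptic organizers and 4 of 41 TGF-beta and BMP genes. They also made up 4 of 24 neurotransmitter receptor subunits and 4 of 20 proneural and neuroendocrine factors, and 3 or fewer in any other group. Genes named below that entered in this way include CRH, SHISA9, NRXN3, GFRA3, BMP6, NUPR1, CRYAB and ACTG2. The neuronal secretory groups leaned to the CSA knockdown. Of 40 synaptic vesicle and exocytosis genes, 26 were higher in the CSA knockdown and 9 in the CSB knockdown, with a median log2 difference of -0.55, and without CSB replicate 2 the counts were 23 and 5. Of 19 granin and prohormone processing genes, 11 were higher in the CSA and 4 in the CSB knockdown (median -0.56), and the 4 were 2 without either CSB replicate. Of 44 growth cone and microtubule genes, 26 were higher in the CSA and 9 in the CSB knockdown (median -0.27).

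CHGA, the main granin of neuroendocrine secretory granules, stood at 22906 and 25867 scaled counts in the CSA libraries, 3566 and 3681 in the CSB libraries and 15330.3 and 14469 in the control. The log2 difference was -2.75 ± 0.06 (SE; limma adjusted p = 4.9e-11), and the 3 groups did not overlap. CHGB, its paralogue, followed the same order with 3687 and 4073 against 831 and 837 (-2.22 ± 0.06). SNAP25, a SNARE protein of the presynaptic membrane, stood at 3193 and 3065 against 933 and 907 (-1.77 ± 0.05), with 2703 and 2776 in the control. CPLX2, a complexin that clamps vesicle fusion, was at -1.81 and RIMS1, a scaffold of the active zone, at -1.96. GAP43, a growth cone phosphoprotein, stood at 2859 and 3037 against 462 and 428 (-2.72 ± 0.06), with 1388 and 1449 in the control, and the neurofilament genes NEFM and NEFL were at -2.02 and -1.97.

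Some members of these groups went the other way. SYT13, an atypical synaptotagmin, stood at 50.9 and 34.3 in the CSA libraries against 266 and 276 in the CSB libraries (log2 difference 2.67 ± 0.17; limma adjusted p = 1.5e-07). SV2C, a vesicle glycoprotein, was at 1.67, and VIP, a neuropeptide, at 1.34, with 1554 and 1520.1 scaled counts against 4012 and 3801. VIM, the mesenchymal intermediate filament vimentin, stood at 3896 and 3770 against 13718 and 13854 (1.85 ± 0.05; limma adjusted p = 9.7e-11), with 6826 and 6859 in the control. Corticotropin-releasing hormone, CRH, was called on 37 reads in the CSA libraries against 1 in the CSB libraries, a ratio of 39.8 (95% counting interval 6.71 to 1614).

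Synaptic organizers, channels and receptors were mixed. Of 42 synaptic organizers, 20 were higher in the CSA and 10 in the CSB knockdown (median -0.17), and the counts were 12 and 7 without CSB replicate 1, 13 and 7 without CSB replicate 2, and 13 and 8 without CSA replicate 1. SHISA9, an AMPA receptor auxiliary protein, had 70.5 and 58.2 scaled counts in the CSA libraries against 2.20 and 1.65 in the CSB libraries and 0.995 and 0 in the control (log2 difference -4.48 ± 0.53; limma adjusted p = 3.4e-05). NRXN3, a presynaptic neurexin, had 2.17 and 1.91 against 22.02 and 30.5, with 25.9 and 24.1 in the control (3.15 ± 0.39). For SHISA9 the CSA libraries stood alone as high, and for NRXN3 they stood alone as low. Both genes reached the level of 10 in only 1 knockdown, which ties their direction to the choice of genes. Voltage-gated channels counted 17 higher in the CSA and 13 higher in the CSB knockdown of 42, led by KCNH6, a potassium channel, at -2.74 and CACNG4, an AMPA receptor regulatory protein, at -1.73. Without CSB replicate 1 or 2 the channels higher in the CSB knockdown numbered 7 and 6. Neurotransmitter receptor subunits counted 10 and 8 of 24. GRIA2, the AMPA receptor subunit that sets calcium permeability, stood at 1272 and 1190.2 in the CSA libraries against 349 and 389 in the CSB libraries (-1.74 ± 0.08), while GRIN2D, an NMDA receptor subunit, was at 1.98. The receptor subunits higher in the CSB knockdown numbered 3 without either CSB replicate and 4 without CSA replicate 2, and those higher in the CSA knockdown 6 without CSB replicate 1.

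The list of proneural and neuroendocrine factors, which also holds the RNA-binding protein gene ELAVL2, and the noradrenergic identity genes split as well. Of 20 proneural and neuroendocrine factors, 8 were higher in each knockdown, and without either CSB replicate 5 were higher in the CSB and 6 in the CSA knockdown. Beside NEUROG2 and INSM2, EBF1, an early neuronal differentiation factor, stood at 452 and 451 against 172 and 144 (log2 difference -1.51 ± 0.12; limma adjusted p = 8.7e-07). ELAVL2, a neuronal RNA-binding protein, stood at 228 and 182 against 841 and 787 (1.99 ± 0.10), and ATOH8, a helix-loop-helix factor, at 202 and 227 against 761 and 761 (1.83 ± 0.10). Of 24 noradrenergic identity genes, 11 were higher in the CSA and 8 in the CSB knockdown (median -0.04), and those higher in the CSB knockdown numbered 4 without either CSB replicate. SLC18A1, a vesicular monoamine transporter, stood at 861 and 789 against 217 and 218 (-1.92 ± 0.08), with 193 and 183 in the control. CHRNA3, the ganglionic nicotinic receptor subunit, was at -1.55 and GCH1, which makes the cofactor of tyrosine hydroxylase, at -1.42. TBX2, a factor of the noradrenergic core circuit that overlaps TBX2-AS1, was at 1.29.

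Mesenchymal, matrix and contractile genes were higher in the CSB knockdown. Of 34 extracellular matrix genes, 32 were higher in the CSB knockdown and 1, TIMP3, in the CSA knockdown, with a median log2 difference of 1.04. The call of TIMP3 was lost without either CSB replicate. Of 22 YAP and TEAD targets, 20 were higher in the CSB and 0 in the CSA knockdown (median 0.75), and 13 were higher without CSB replicate 1. Of 23 neural crest and mesenchymal transcription factors, 17 were higher in the CSB and 2 in the CSA knockdown (median 0.82), and of 26 actin and contractile genes, 19 and 3 (median 0.76), the 3 being 1 without either CSB replicate. The summed level of the 10 measured fibroblast markers was 9828 and 9440.3 in the CSA knockdown, 16908 and 17651 in the CSB knockdown and 14333 and 14026 in the control. Of those 10, 8 were higher in the CSB knockdown and 1, THY1, in the CSA knockdown, and TCF21 and POSTN stayed below the minimum for testing. The part of fibroblast-type transcripts in these groups was not tested.

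VCAN, a chondroitin sulfate proteoglycan, stood at 947 and 842 scaled counts in the CSA libraries, 5180.2 and 5711 in the CSB libraries and 2265 and 2369 in the control. The log2 difference was 2.60 ± 0.07 (SE; limma adjusted p = 1.2e-10), and the 3 groups did not overlap. DCN, the small proteoglycan decorin, stood at 139 and 112 against 783 and 683 (2.55 ± 0.12), and COL1A1, the main chain of type I collagen, at 681 and 793 against 2280.2 and 2341 (1.65 ± 0.08). ACTA2, smooth muscle actin, stood at 42.3 and 64.8 in the CSA knockdown, 304 and 307 in the CSB knockdown and 564 and 575 in the control (2.52 ± 0.16). Here the control libraries were the highest, as for ACTG2, the enteric smooth muscle actin, at 7.59 and 9.54 against 76.0 and 55.3, with 229.8 and 244 in the control. ACTA2 and ACTG2 are similar in coding sequence, and ACTA2 overlaps FAS and STAMBPL1, so how their reads were divided is uncertain.

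SNAI2, a repressor of epithelial genes in neural crest, stood at 183 and 136 in the CSA libraries against 1045 and 1009.8 in the CSB libraries (log2 difference 2.69 ± 0.12; limma adjusted p = 6.8e-09), with 394 and 366 in the control. FOSL1, an AP-1 subunit, stood at 13.01 and 18.1 against 116 and 133 (2.93 ± 0.24). ANKRD1, a nuclear target of YAP, stood at 41.2 and 36.2 against 276 and 267 (2.78 ± 0.15), with 152 and 123 in the control. The 2 members higher in the CSA knockdown among the crest and mesenchymal factors were TCF4, an E protein, at -0.64, and FOSL2, an AP-1 subunit, at -0.29. The call of FOSL2 was lost in 7 alternatives, among them the fit of the knockdown libraries alone and the fits without CSA replicate 2, either CSB replicate or either control. Integrins and laminins counted 12 higher in the CSB and 5 higher in the CSA knockdown of 25 (median 0.38), with 7 higher in the CSB knockdown without either CSB replicate and 3 higher in the CSA knockdown without either CSA replicate. ITGA1, a collagen receptor chain that overlaps PELO, went against the group with 2975 and 2707 against 848 and 879 (-1.72 ± 0.06).

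Signalling groups of mesenchyme and neural crest shared the direction of the matrix genes. The TGF-beta and BMP list had the largest median of the 53 lists, 1.23, with 33 of 41 genes higher in the CSB and 4 in the CSA knockdown, the latter 2 without CSB replicate 1. SMAD6, an inhibitory SMAD induced by BMP signals, stood at 681 and 719 scaled counts in the CSA libraries, 5344 and 5241 in the CSB libraries and 1996 and 1831 in the control (log2 difference 2.92 ± 0.06; limma adjusted p = 2.2e-11). ENG, the TGF-beta co-receptor endoglin, stood at 707 and 618 against 4638 and 4849 (2.84 ± 0.07). Both genes had controls between the knockdowns. BMP6, a ligand, was called on 70 reads in the CSB libraries against 1 in the CSA libraries, a ratio of 65.1 (95% counting interval 11.3 to 2607). BMPR1B, a type I BMP receptor, went the other way with 648 and 626 against 85.9 and 132 (-2.57 ± 0.16).

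Of 38 Wnt pathway genes, 24 were higher in the CSB and 2 in the CSA knockdown (median 0.49), and the 2 were 1 without any single library of the 6. APCDD1, a secreted Wnt inhibitor, stood at 10.8 and 12.4 against 96.9 and 72.6 (log2 difference 2.75 ± 0.26; limma adjusted p = 5.4e-06), and FZD6, a Wnt receptor, at 489.9 and 419 against 261 and 247 (-0.83 ± 0.09). Of 26 Notch pathway genes, 13 were higher in the CSB and 4 in the CSA knockdown (median 0.31), and the 4 were 2 without CSA replicate 2 or CSB replicate 1. NOTCH1, a receptor, stood at 192 and 227 against 1225 and 1285 (2.58 ± 0.09), and HES1, the classical Notch target and a repressor of proneural genes, at 68.3 and 76.3 against 253 and 298 (1.91 ± 0.13). DNER, a neuronal Notch ligand, stood at 113 and 95.4 against 15.4 and 28.9 (-2.24 ± 0.28). Receptor and target were thus higher in the CSB knockdown, and this ligand was higher in the CSA knockdown.

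The IGF axis and the neurotrophin and GDNF receptors held large differences in both directions. Of 19 IGF axis genes, 12 were higher in the CSB and 4 in the CSA knockdown (median 0.63), although IGF2 itself was far lower in the CSB knockdown. IGFBP5, an IGF-binding protein, stood at 4592 and 4764 scaled counts in the CSA libraries against 21334 and 22422 in the CSB libraries (log2 difference 2.23 ± 0.05; limma adjusted p = 4.9e-11), with 7488 and 7282 in the control. HTRA1, a protease that cleaves IGF-binding proteins, was at 2.19. Of 26 neurotrophin and GDNF receptor genes, 13 were higher in the CSB and 8 in the CSA knockdown (median 0.44). Those higher in the CSA knockdown numbered 4 without CSA replicate 1 and 5 without either CSB replicate or either control replicate. GFRA3, the artemin receptor, stood at 82.4 and 89.6 against 4.40 and 5.78 (-3.84 ± 0.32), and RET, the kinase of the GDNF receptors, at 9189 and 9208 against 3368 and 3549 (-1.41 ± 0.05).

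Of 24 imprinted genes, 7 were higher in each knockdown with the deposited scaling, and 6 and 11 after TMM scaling. Without either CSB replicate 4 were higher in the CSB knockdown. PLAGL1, an imprinted zinc finger factor, was higher in the CSB knockdown with 235 and 188 against 489.9 and 516 (log2 difference 1.25 ± 0.10; limma adjusted p = 1.8e-06), so imprinted genes did not move as a block. Axon guidance genes counted 24 higher in the CSB and 12 higher in the CSA knockdown of 43. The latter count was 3 and 5 without CSB replicate 1 and 2, and 7 without CSA replicate 2 or either control. EFNB2, an ephrin ligand, stood at 2202 and 2341 against 566 and 609.7 (-1.95 ± 0.07), ROBO2, a Slit receptor, was at -1.90, and RGMA, a repulsive guidance molecule, was at 2.27. Cadherins and protocadherins counted 11 and 7 of 23, with CDH8, a type II cadherin, at 26.0 and 24.8 against 204 and 222 (3.02 ± 0.17). The 7 were 4 without CSA replicate 2 or CSB replicate 1.

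Early response and growth factor feedback genes were mostly higher in the CSB knockdown. Of 25 AP-1 and early response genes, 18 were higher in the CSB and 6 in the CSA knockdown (median 0.76). The 6 depended on single libraries, with 3 and 2 left without CSA replicate 1 and 2, and 1 and 2 without CSB replicate 1 and 2. DUSP2, a nuclear phosphatase of MAP kinases, stood at 90.0 and 144 against 793 and 650.1 (log2 difference 2.65 ± 0.19; limma adjusted p = 5.2e-07). Of 20 ERK feedback genes, 13 were higher in the CSB and 4 in the CSA knockdown, and 8 were higher without CSB replicate 2. DUSP6, the ERK phosphatase, at -0.67, and SPRY2, a feedback inhibitor of receptor kinases, at -0.65, were among the 4. LIF, a cytokine of the interleukin-6 family, stood at 15.2 and 12.4 against 74.9 and 83.3 (2.44 ± 0.28).

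Retinoid, HOX, cytokine and interferon groups held called genes in both directions, and most of these counts moved with single libraries. Retinoid signalling genes counted 9 higher in the CSB and 3 higher in the CSA knockdown of 19, with 5 and 2 without CSB replicate 1. CRABP2, a retinoic acid carrier, was at 1.37. Of 13 HOX genes, 5 were higher in the CSB and 3 in the CSA knockdown, and 3 and 1 without CSB replicate 2. The members named among the 5 belong to the HOXC cluster, with HOXC8 at 1.89 and HOXC5 at 1.54, and the 3 are HOXD8, HOXD9 and HOXD10, between -0.74 and -0.37. The call of HOXD10 was lost without any 1 of the 4 knockdown libraries, and that of HOXD9 without CSB replicate 2. The HOXC genes overlap one another, so their reads may not be separated. NF-kB targets and cytokines counted 6 and 3 of 15, and 1 and 0 without CSB replicate 1, 2 and 0 without CSB replicate 2, 3 and 0 without CSA replicate 1, and 1 was higher in the CSA knockdown without either control. Interferon and antigen presentation genes counted 10 and 5 of 34, in all 44.1%, which is close to the 43.9% over all genes described. B2M, the light chain of class I molecules, stood at 1439 and 1475 against 3309.6 and 3173 (log2 difference 1.15 ± 0.05; limma adjusted p = 7.3e-09), and OAS1, an antiviral enzyme, at 142 and 113 against 60.6 and 58.6 (-1.08 ± 0.15). The 10 and 5 were 6 and 2 without CSB replicate 1, 5 and 3 without CSB replicate 2, 8 and 3 or 2 without CSA replicate 1 or 2, and 10 and 3 without either control.

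**Figure D4:**
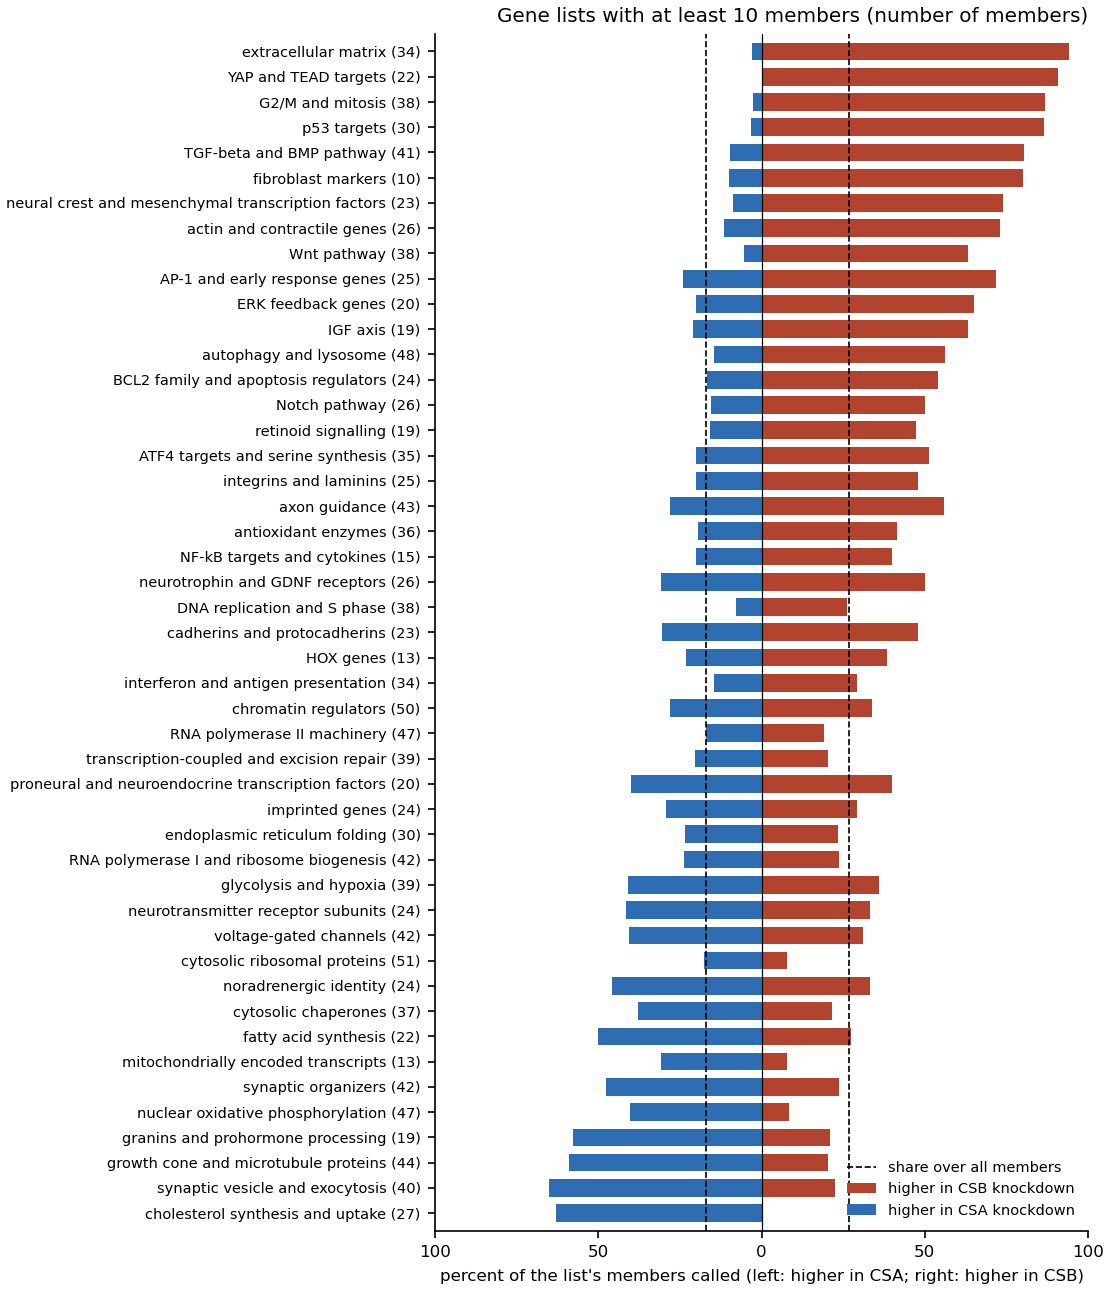
Percent of each gene list's members that were higher in the CSB knockdown (red, right) or higher in the CSA knockdown (blue, left), for lists with at least 10 members, with the number of members in brackets and dashed lines at the shares over all genes described (27.0% and 16.9%). With lists ordered by the first share minus the second, extracellular matrix stands at the top with 32 of 34 genes higher in the CSB knockdown, and cholesterol synthesis and uptake at the bottom with 17 of 27 higher in the CSA knockdown.

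Targets of p53, the transcription factor activated by DNA damage and other stresses, were higher in the CSB knockdown. Of 30 p53 targets, 26 were higher in the CSB and 1, CCNG1, in the CSA knockdown, with a median log2 difference of 0.99. The call of CCNG1, at -0.28, was lost without either CSB replicate and in limma without a trend. ZMAT3, an RNA-binding protein, stood at 658 and 603 scaled counts in the CSA libraries, 3579 and 3800.0 in the CSB libraries and 1842 and 1928 in the control (2.55 ± 0.06; limma adjusted p = 7e-11). PLK2, a polo-like kinase, stood at 169 and 158 against 756 and 793 (2.24 ± 0.08), with 234 and 223 in the control. For both genes and for GDF15 the control libraries lay between the knockdowns. CDKN1A, the cell cycle inhibitor p21, was at 1.25 and MDM2, the ubiquitin ligase of p53, at 1.27, both named after their values were seen.

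Of 24 genes of the BCL2 family and other apoptosis regulators, 13 were higher in the CSB and 4 in the CSA knockdown (median 0.25), and they included genes of opposite function. The 4 were 2 without either CSB replicate. BCL2, the antiapoptotic founder of the family, stood at 1299 and 1302 against 4504 and 4933 (log2 difference 1.86 ± 0.06; limma adjusted p = 8.6e-10). BMF, a proapoptotic BH3-only protein, stood at 541 and 574 against 2872 and 3003 (2.40 ± 0.06), and BBC3, the BH3-only protein PUMA, at 549.5 and 642 against 1856 and 1865 (1.65 ± 0.09). HRK, a BH3-only protein of neurons, went the other way with 64.0 and 88.7 against 19.8 and 29.7, with 11.9 and 6.75 in the control (-1.59 ± 0.35), and its call was lost without any 1 of the 4 knockdown libraries and in limma without a trend. CASP9, the initiator caspase of the mitochondrial pathway, was at -0.58.

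Mitotic genes were also higher in the CSB knockdown. Of 38 G2/M and mitosis genes, 33 were higher in the CSB and 1, CDC25B, in the CSA knockdown, with a median of 0.55. The call of CDC25B, at -0.23, was lost in the same 3 alternatives as that of CCNG1. KIF20A, a kinesin of cytokinesis, stood at 931 and 951 scaled counts in the CSA knockdown, 2215 and 2195 in the CSB knockdown and 1798 and 1699.6 in the control (log2 difference 1.23 ± 0.05; limma adjusted p = 7.9e-09), and it overlaps CDC23 and BRD8. CDC20, an activator of the anaphase-promoting complex, stood at 1278 and 1258 against 2335 and 2324, with 2089 and 2183 in the control (0.88 ± 0.05). BIRC5, the passenger protein survivin, stood at 1639.9 and 1514 against 3210.5 and 3001, with 3452 and 3445 in the control (0.98 ± 0.06). In these genes the CSA libraries were the low ones. The CSB libraries lay above both control libraries for KIF20A and CDC20, and below both for BIRC5. The summed level of the list was 71154 and 68091 in the CSA knockdown against 103536 and 104910.0 in the CSB knockdown and 103862 and 103077 in the control.

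S phase and repair genes did not follow the mitotic genes. Of 38 replication and S phase genes, 10 were higher in the CSB and 3 in the CSA knockdown (median 0.04), a balance of 8 to 8 after TMM scaling and of 3 to 2 or 2 to 2 without CSB replicate 1 or 2. CCNE1, the cyclin of S phase entry, stood at 593 and 626 against 356 and 333 (log2 difference -0.82 ± 0.07; limma adjusted p = 3.5e-06), and CDT1, the replication licensing factor, at 1397 and 1413 against 2507 and 2659 (0.88 ± 0.05). Of 39 transcription-coupled and excision repair genes, ERCC8 and ERCC6 among them, 8 were higher in each knockdown, 5 and 10 after TMM scaling, and 4 in the CSB and 5 in the CSA knockdown without CSB replicate 2. DDB2, the damage sensor of global genome repair and a p53 target, stood at 620.0 and 604 against 1302 and 1376 (1.13 ± 0.06). TCEA1, the elongation factor that helps backtracked RNA polymerase II to resume, stood at 2273 and 2126 against 1355 and 1319, with 2296 and 2371 in the control (-0.72 ± 0.05). For TCEA1 the CSB libraries were the low ones.

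Cholesterol synthesis and uptake genes that differed were all higher in the CSA knockdown. Cells switch this pathway on through SREBP2, the product of SREBF2, which binds sterol response elements together with the CCAAT-binding factor NF-Y. Of 27 genes, 17 were higher in the CSA and 0 in the CSB knockdown, with a median of -0.32, and 9 and 11 were higher in the CSA knockdown without CSB replicate 1 and 2. HMGCS1, the enzyme before HMG-CoA reductase, stood at 1148 and 1204 scaled counts in the CSA libraries, 349 and 369.6 in the CSB libraries and 1303 and 1338 in the control (log2 difference -1.71 ± 0.06; limma adjusted p = 1.8e-09). SREBF2 stood at 3069 and 2989.7 against 1760.5 and 1777, with 2692 and 2635 in the control (-0.78 ± 0.05). HSD17B7, a late enzyme of the pathway, stood at 336 and 317 against 192 and 187 (-0.78 ± 0.09). The CSB libraries were the lowest of the 6 for these genes.

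Promoter windows of 2 cholesterol genes and 2 mitotic genes are printed because these groups leaned to opposite knockdowns and their textbook control elements are short. The sequences are the bases before the gene start in RefSeq (GRCh38.p14), read 5′ to 3′ on the gene's strand: SREBF2 at chr22:41832935-41833104 (+), HMGCS1 at chr5:43313413-43313582 (-), CDC20 at chr1:43358851-43358980 (+) and KIF20A at chr5:138178982-138179111 (+). Capitals mark matches to the sterol response element TCACNCCAC or the CCAAT box in the first pair, and to the CHR element TTTGAA or the CCAAT box in the second pair, each searched on both strands.
SREBF2: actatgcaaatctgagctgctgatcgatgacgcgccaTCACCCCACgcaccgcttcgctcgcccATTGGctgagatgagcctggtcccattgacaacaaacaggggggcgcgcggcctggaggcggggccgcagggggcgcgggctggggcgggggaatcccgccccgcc
HMGCS1: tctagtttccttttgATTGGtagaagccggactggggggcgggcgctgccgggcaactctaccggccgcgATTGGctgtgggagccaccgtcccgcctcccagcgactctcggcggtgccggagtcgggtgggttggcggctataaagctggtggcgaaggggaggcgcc
CDC20: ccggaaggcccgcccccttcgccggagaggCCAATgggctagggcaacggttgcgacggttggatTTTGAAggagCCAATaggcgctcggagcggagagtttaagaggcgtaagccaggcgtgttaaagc
KIF20A: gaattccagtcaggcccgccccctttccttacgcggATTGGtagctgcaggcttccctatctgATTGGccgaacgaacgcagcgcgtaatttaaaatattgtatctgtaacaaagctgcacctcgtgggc

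SREBF2 held a sterol response element beginning 133 bases before the start and a CCAAT box on the reverse strand beginning 106 bases before it. CDC20 held a CHR element beginning 65 bases before the start between CCAAT boxes at 100 and 55, and a second CHR match lay on the reverse strand, farther from the start than the printed bases. HMGCS1 and KIF20A each held 2 CCAAT boxes on the reverse strand in the printed windows. Of the 27 cholesterol genes, 21 had a window of 250 bases in the RefSeq table, and 17 (81%) held a CCAAT box, against 40.9% of the genes described that had a window and 37% of all genes in the table. The sterol response element as spelled was in 1 of the 21, SREBF2, against 1.19% of the genes described that had a window and 1.09% of all genes in the table. Of 38 mitotic genes, 32 had a window. Of these, 26 (81.2%) held a CCAAT box, against the same 40.9% and 37%, and 18 (56.2%) a CHR element. The CHR element was in 12.1% of the genes described that had a window and in 16.1% of all genes in the table. A gene counted as holding a motif where any of its listed starts did. These matches describe letters in these windows only.

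Fatty acid synthesis shared the lean less evenly, with 11 of 22 genes higher in the CSA and 6 in the CSB knockdown (median -0.24). Without CSB replicate 1 the counts were 6 and 3, and without CSB replicate 2 they were 8 and 3. SCD, the main stearoyl-CoA desaturase, stood at 4394 and 4204 against 2770.1 and 2901 (log2 difference -0.60 ± 0.05; limma adjusted p = 1.7e-06). SCD5, its neuronal paralogue, stood at 579 and 558 against 1165 and 1101 (0.99 ± 0.06). The desaturase genes thus differed in opposite directions. VLDLR, a lipoprotein receptor and ATF4 target that overlaps VLDLR-AS1, stood at 2541 and 2444 against 749.8 and 687, with 1072 and 1142 in the control (-1.79 ± 0.06).

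Stress and degradation groups were less one-sided. Of 35 ATF4 target and serine synthesis genes, 18 were higher in the CSB and 7 in the CSA knockdown (median 0.17), and 7 and 4 without CSB replicate 1, or 8 and 5 without CSB replicate 2. NUPR1, a stress-induced nuclear protein, was at 0 in both CSA libraries and had 30 reads in the CSB libraries, at least 9.30-fold higher against a floor of 3 reads over the CSA libraries. ATF5, a factor of the stress response that overlaps NUP62, stood at 144 and 153 against 369 and 378 (log2 difference 1.33 ± 0.10; limma adjusted p = 9.3e-07). Endoplasmic reticulum folding genes counted 7 higher in each knockdown of 30, with HYOU1, a chaperone, at 1.04 and CANX, the lectin chaperone calnexin, at -0.52. Without CSB replicate 1 those counts were 6 and 3, and without CSB replicate 2 the counts were 5 and 4.

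Of 36 antioxidant enzymes, 15 were higher in the CSB and 7 in the CSA knockdown (median 0.11), 10 and 9 after TMM scaling. Without CSB replicate 1 the counts were 5 and 3, without CSB replicate 2 they were 6 and 3, and without CSA replicate 2 they were 9 and 6. HMOX1, haem oxygenase, stood at 27.1 and 23.8 against 80.4 and 74.3 (log2 difference 1.57 ± 0.21; limma adjusted p = 1.0e-04), and PRDX3, the mitochondrial peroxiredoxin, at 2553 and 2387 against 1692 and 1587 (-0.59 ± 0.06). Of 37 genes of the cytosolic chaperone list, which also holds the mitochondrial HSPD1, 14 were higher in the CSA and 8 in the CSB knockdown. CRYAB, a small heat shock protein, had 5.42 and 4.77 scaled counts in the CSA libraries, 52.8 and 51.2 in the CSB libraries and 53.7 and 55.0 in the control (3.12 ± 0.28), so the CSA libraries stood alone as low. HSPD1, the mitochondrial chaperonin, and CCT7, a subunit of the cytosolic chaperonin, were at -0.56 and -0.58. The chaperones higher in the CSA and CSB knockdown numbered 6 and 4 without CSB replicate 1, 7 and 4 without CSB replicate 2, and 9 and 6 without either control.

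Autophagy and lysosome genes counted 27 higher in the CSB and 7 higher in the CSA knockdown of 48 (median 0.29), 16 and 4 without CSB replicate 1, 17 and 3 without CSB replicate 2, and 26 and 3 without CSA replicate 1. CTSF, a lysosomal protease, stood at 669 and 712 against 1433 and 1460.3 (log2 difference 1.07 ± 0.07; limma adjusted p = 2.9e-07), and MITF, a factor of lysosome and melanocyte genes, at 113 and 88.7 against 215 and 224 (1.13 ± 0.14). MAP1LC3B, an autophagosome protein that overlaps FBXO31, and ATG5, of the conjugation machinery, were at -0.77 and -0.60, and their calls were lost without either CSB replicate and without CSA replicate 1, respectively. Of 39 glycolysis and hypoxia genes, 16 were higher in the CSA and 14 in the CSB knockdown (median -0.04), and 10 and 11 without CSB replicate 1, or 9 and 10 without CSB replicate 2. ALDOC, the neuronal aldolase, stood at 480.2 and 459.7 against 208 and 189.8 (-1.24 ± 0.08), and PFKFB3, a kinase that stimulates glycolysis, at 424 and 453 against 1166 and 1234 (1.45 ± 0.06).

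Mitochondrial and ribosomal protein genes differed by small amounts that depended on the library and the scaling. Of 47 nuclear oxidative phosphorylation genes, 19 were higher in the CSA and 4 in the CSB knockdown (median -0.15), 25 and 0 after TMM scaling. The 19 were 10 and 8 without CSA replicate 1 and 2, 12 and 5 without CSB replicate 1 and 2, and 10 without either control. The 4 were 1 without CSA replicate 1 and 0 without either CSB replicate or either control. NDUFB10, a subunit of complex I, stood at 1479.5 and 1683 against 926 and 919 (log2 difference -0.77 ± 0.07; limma adjusted p = 2.1e-06). Of 13 mitochondrially encoded transcripts, 4 were higher in the CSA and 1 in the CSB knockdown (median -0.15). No mitochondrially encoded call was left without CSB replicate 1 or 2, and 1 and 0 were left without either control, 2 and 0 without CSA replicate 2, and 3 and 0 without CSA replicate 1. Of 51 cytosolic ribosomal protein genes, 9 were higher in the CSA and 4 in the CSB knockdown, 15 and 0 after TMM scaling, and 0 and 0 without CSB replicate 2. Without CSB replicate 1 they were 1 and 0, without CSA replicate 1 or 2 they were 4 and 1 or 3 and 3, and without either control they were 4 and 0. RPLP1, a stalk protein, was at -0.40, a call lost without CSA replicate 1, without CSB replicate 2 and in limma without a trend. Ribosomal protein genes have many processed pseudogenes, so their counts are uncertain.

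Transcription and chromatin regulator groups, which lie close to the known roles of CSB, had similar counts in both directions with the deposited scaling. Similar counts differ from the split over all genes described, 27.0% higher in the CSB and 16.9% higher in the CSA knockdown. The RNA polymerase II, RNA polymerase I and chromatin regulator groups each had a median of -0.02, against 0.08 over all genes described. After TMM scaling each had a median of -0.11, against -0.0063. Of 47 RNA polymerase II machinery genes, 9 were higher in the CSB and 8 in the CSA knockdown, and 7 and 13 after TMM scaling. TAF1, a TFIID subunit, stood at 1760.2 and 1796 against 2944 and 2984 (log2 difference 0.74 ± 0.05; limma adjusted p = 2.5e-07), and GTF2A1, a TFIIA subunit, at 1871 and 1823 against 1060.3 and 1096 (-0.78 ± 0.06). Without CSB replicate 1 the polymerase II counts were 5 and 3, and without CSB replicate 2 they were 4 and 3. Of 42 RNA polymerase I and ribosome biogenesis genes, 10 were higher in each knockdown, and 7 and 14 after TMM scaling. UBTF, the factor that opens ribosomal gene chromatin, stood at 3310.2 and 3239 against 4424 and 4668 (0.47 ± 0.05). Those higher in the CSB and CSA knockdown numbered 7 and 1 without CSB replicate 1, 3 and 4 without CSB replicate 2, 7 and 4 or 8 and 5 without CSA replicate 1 or 2, and 7 and 4 without either control.

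Of 50 chromatin regulators, 17 were higher in the CSB and 14 in the CSA knockdown, 13 and 23 after TMM scaling, 11 and 6 without CSB replicate 1, and 9 and 7 without CSB replicate 2. CHD5, a neuronal remodeller, stood at 586 and 583 scaled counts in the CSA knockdown, 1752 and 1828 in the CSB knockdown, and 912 and 929 in the control (log2 difference 1.61 ± 0.06; limma adjusted p = 1.4e-09). SUZ12, a core subunit of the Polycomb repressive complex PRC2, stood at 1644 and 1688 against 908 and 908, with 1593 and 1534 in the control (-0.87 ± 0.05). For SUZ12 the CSB libraries were the low ones. SMARCA5, the ATPase of ISWI remodellers, was at -0.57. Of 8 replication-dependent histone genes, 7 were higher in the CSA and 0 in the CSB knockdown (median -0.89), with 4 left without CSA replicate 2 and 3 without either CSB replicate. HIST1H2AC stood at 125 and 155 against 56.2 and 61.1, with 47.7 and 50.2 in the control (-1.24 ± 0.17). Histone mRNA of this class largely lacks a poly(A) tail and its genes are near-identical, so these low counts are uncertain.

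**Figure D5:**
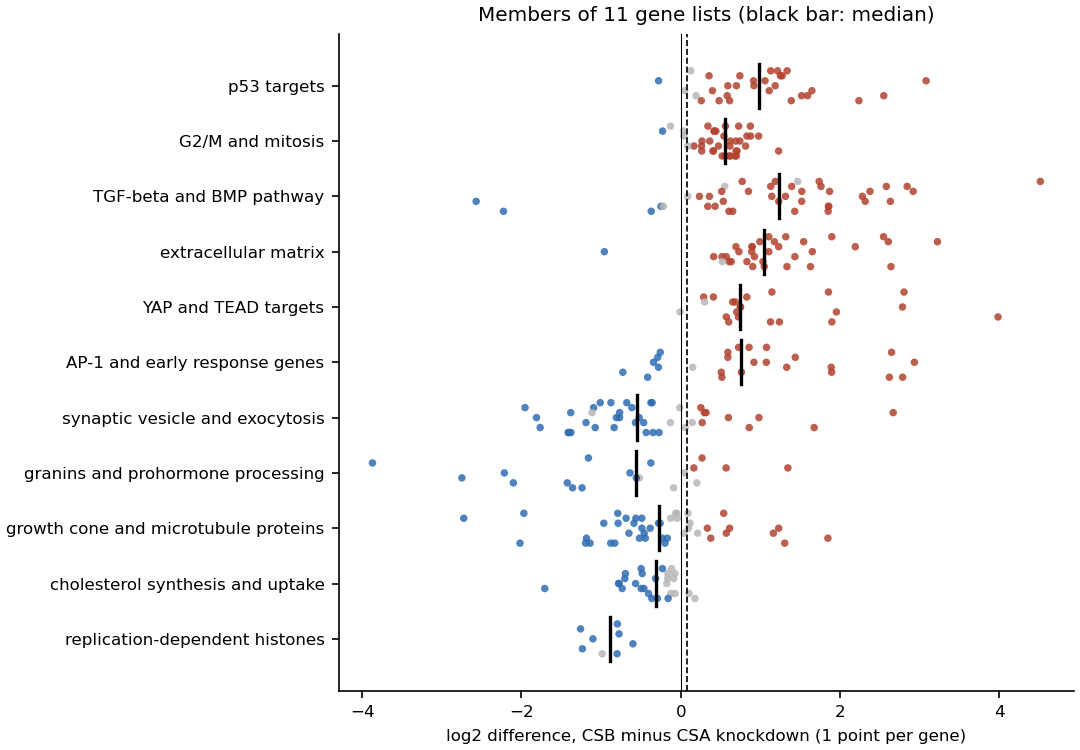
Log2 difference between the CSB and CSA knockdowns for each gene of 11 lists (red, higher in the CSB knockdown; blue, higher in the CSA knockdown; grey, not called), with a black bar at each list's median, a solid line at 0 and a dashed line at the median over all genes described (0.08). The p53, G2/M, TGF-beta, matrix, YAP and AP-1 lists lie mostly to the right and the synaptic vesicle, granin, growth cone, cholesterol and histone lists mostly to the left.

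Markers of cell types other than neuroblasts were low apart from the fibroblast list. Summed over the measured markers, Schwann and glial genes stood at 592 and 568 scaled counts in the CSA libraries against 1228 and 1185 in the CSB libraries. PMP22, a myelin protein also made by many other cells, accounted for most of that sum, with 456 and 429 against 1057 and 1037 (log2 difference 1.24 ± 0.07; limma adjusted p = 3.6e-08). Endothelial markers summed to 46.6 and 58.2 against 121 and 121, blood cell markers to 22.8 and 20.03 against 29.7 and 26.4, and epithelial markers to 323 and 322 against 299 and 299. Melanocyte markers summed to 301 and 313 against 361 and 378, but only MITF of the 6 that reached the level of 10 was higher in the CSB knockdown. TYRP1, DCT and PMEL, proteins of the pigment granule, were higher in the CSA knockdown at -2.90, -1.36 and -0.59, and the list's median was -0.48. These 3 calls were 1 without CSA replicate 2, either CSB replicate or either control. Of the epithelial genes that reached the level of 10, the keratin KRT19 was at -1.49 and KRT18, which overlaps KRT8, at 2.16. Fewer cells of a type and less RNA per cell cannot be told apart in these bulk libraries.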

How the data were processed

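Per the submitters' processing notes, reads were checked with FastQC and aligned to hg38 with HISAT2 2.0.4. The sources used here name no tool for counting or normalization and no strand setting. The deposited values, headed FPKM per the file headers, carry no gene length: in every library 100% of values were whole multiples of the smallest one (tolerance 0.01 of that step). They are therefore a signal, gene reads divided by 1 size factor per library as deposited by the authors, and are called scaled counts. Between 19368272 and 26758162 reads per library were recovered from them, and these set the precision; counting intervals cover counting error only. The design foresaw edgeR only for raw counts, so limma was kept as the main test for these scaled values.

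limma 3.58.1 (R 4.3.3) with a mean-variance trend was fitted to log2(scaled count + 1) in all 6 libraries, 3 groups and 3 residual degrees of freedom, for 28388 genes with a mean of at least 1 in at least 1 group. The contrast was CSB minus CSA knockdown, with Benjamini-Hochberg adjustment over all of these genes and a threshold of 0.05; every adjusted p is from this test. Adding 1 understates the fold of genes with few reads. Only genes with a mean of at least 10 in a knockdown are described. The script was tested on simulated data.

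Alternatives were edgeR 4.0.16 on the recovered reads (8718 genes called with TMM, against 7965), DESeq2 1.42.0 on the same reads (6492), other scalings, filters, pseudocounts and fits, and leaving out each library. The members and the 53 gene lists were chosen with earlier results of these data known. Named genes are the hairpin targets, the 15 largest differences in each direction with a mean of at least 100 in the higher knockdown, up to 3 per list and direction, and the genes beside the minimum of 10. CDKN1A, MDM2, HBB and cell type markers are outside that rule, and a few results that it covers are not reported here. No pairing of the libraries by replicate number was seen. Genes that overlap others are marked, since the strand use is unknown. Motifs were searched in the 250 bases before each start of 27305 symbols in the RefSeq promoter table (GRCh38.p14), matched by symbol.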

Additional observations from a re-analysis of the deposited data

How the results depend on the processing

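In several of the 20 alternatives the log2 difference stays the same by construction, so its direction could not change. They are the fits of the knockdown libraries alone, without 1 control library, without a trend, with other filters and with the replicate block. Most named genes were also chosen for their large differences. Over the 20 alternatives none of the named genes that differed changed direction, and ERCC8 and ERCC6 kept their calls in each. Of these 287 genes, 85 lost the call in at least 1 alternative. limma without a trend called 4141 genes (2662 higher in the CSB and 1479 in the CSA knockdown), and 53 named genes lost their call; the cause was not tested. DESeq2 called 3132 genes higher in the CSB knockdown; with its size factors the median log2 difference was -0.0063 against 0.08. Leaving out 1 library at a time gave 3669 to 5994 genes in all, 2183 to 3734 higher in the CSB knockdown and 1452 to 2260 higher in the CSA knockdown, with 3681 in all without CSB replicate 1, 3669 without CSB replicate 2 and 2000 higher in the CSA knockdown without CSA replicate 1. These were fits with fewer samples in which a lone library was assumed to vary like the other groups. Same-numbered libraries deviated from their group means with correlations of -0.04 to -0.03 over 13397 genes. No pairing by replicate number was seen, though these correlations cannot exclude a shared culture or preparation. A fit with the replicate number as a block called 7905 genes (4885 and 3020). The depth, 2 libraries per group and a share called that rises with level limit what can be seen in genes with few reads.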
